A study of Mus musculus with 30 samples.

Results

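Fructose is broken down by a short enzyme chain, and 4 genes of that chain are described here across the gut and liver of C57BL/6 mice. They are Khk, Tkfc, Glyctk and Gpd1, picked by gene name as the enzymes that act from the first phosphorylation of fructose onward, and all 4 were found among the 47069 genes of the deposited table. Gene expression was measured by poly(A) RNA sequencing in 30 libraries, 5 for each of 6 groups: duodenum on fructose, on dextrose (the D form of glucose) and on a corn starch control diet, and liver on the same 3 diets. The sources used here give no age, sex, amount of sugar or time on the diet. Nothing in the labels ties the libraries of a group to separate mice, so p-values measure only the spread between these samples, which may be technical.

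Ketohexokinase, encoded by Khk, phosphorylates fructose to fructose 1-phosphate, which is then cleaved to dihydroxyacetone phosphate and glyceraldehyde. Triokinase, encoded by Tkfc, phosphorylates the glyceraldehyde and so brings it into the triose pool of glycolysis. Glycerate kinase, encoded by Glyctk, phosphorylates glycerate, to which glyceraldehyde can be oxidised instead, and Gpd1, the cytosolic glycerol 3-phosphate dehydrogenase, turns dihydroxyacetone phosphate into glycerol 3-phosphate, the backbone of triglycerides. Liver, kidney and small intestine are the organs known for this chain, and in the small intestine fructose enters the cell through the transporter encoded by Slc2a5.

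The windows upstream of the annotated starts are shown for Khk and Tkfc, whose transcripts moved with diet in duodenum, and for Glyctk, whose transcript did not pass the test there. They come from the RefSeq promoter table on GRCm38.p6, 3 of the 4 genes had an entry, and bases inside exons of the same gene in GENCODE M21 were left out, except for 30 bases around the Khk E-box, which lie within a Khk exon in that annotation. Capitals mark the E-box letters CACGTG, and sequences run 5′ to 3′ on the strand of the gene.
Khk, chr5:30921309-30921430, plus strand: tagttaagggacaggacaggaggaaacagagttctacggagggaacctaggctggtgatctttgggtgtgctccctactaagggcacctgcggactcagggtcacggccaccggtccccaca
Khk around the E-box, chr5:30921476-30921505, plus strand: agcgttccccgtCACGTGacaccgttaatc
Tkfc, chr19:10604274-10604508, minus strand: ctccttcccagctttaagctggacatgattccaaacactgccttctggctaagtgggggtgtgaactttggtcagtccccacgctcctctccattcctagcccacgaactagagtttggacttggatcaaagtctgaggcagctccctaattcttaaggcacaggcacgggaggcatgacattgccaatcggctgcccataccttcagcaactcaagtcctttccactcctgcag
Glyctk, chr9:106158139-106158388, minus strand: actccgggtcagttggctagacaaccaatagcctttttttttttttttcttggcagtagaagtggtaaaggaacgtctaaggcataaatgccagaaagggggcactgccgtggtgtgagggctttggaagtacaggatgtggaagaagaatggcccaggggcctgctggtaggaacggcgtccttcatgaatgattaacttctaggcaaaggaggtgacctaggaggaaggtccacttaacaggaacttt

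In the full windows of 250 bases before each RefSeq start, 3 letter patterns were searched on both strands. The E-box CACGTG was found once, in the Khk window, from -71 to -66 relative to the start, and it was present in 6.02% of the 32851 windows of the table. A carbohydrate response element, searched as the half-sites CANGNG and CNCNTG 5 bases apart, was found in none of the 3 windows and in 0.454% of all windows. The letters CAAAGTCCA, a form of the site of the liver and gut factor HNF4, were also found in none of the 3, and in 0.384% of all windows. The E-box pattern can overlap the half-sites of the second pattern, and no match says only that these letters are not in this window. The Khk window had a GC content of 67.2%, the Tkfc window 52.8% and the Glyctk window 48.4%, where the median over all windows was 52.4%.

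By GENCODE M21, on GRCm38, Khk spans chr5:30921431-30931248 on the plus strand, Tkfc chr19:10587791-10605654 on the minus strand, Glyctk chr9:106152857-106158138 on the minus strand and Gpd1 chr15:99717515-99725005 on the plus strand. The Tkfc stretch and the Khk E-box printed above therefore lie within their genes, downstream of the most distal annotated start. Exons of other genes on the opposite strand cover 12.9% of the Tkfc exon bases (Cyb561a3) and 7.10% (Ddb1), and antisense RNAs cover 52.1% of the Glyctk exon bases and 13.0% of those of Gpd1. The labels do not state that the counting used strand, so reads in these overlaps cannot be told apart. Counts of the antisense RNA over Glyctk were at most 28 per library and of that over Gpd1 at most 2, whereas Ddb1 had 2663 to 6463 counts per library. These counts do not show how many reads fell in the overlaps. A gene count also does not separate the isoforms of Khk.

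Total counts ran from 14530137 to 19850935 per library. Tissue labels and marker genes matched: the 7 enterocyte genes summed to 22438 to 29940 CPM, counts scaled to library size, in duodenum libraries and 1360 to 4618 CPM in liver libraries, and the 7 hepatocyte genes to 58275 to 90058 CPM in liver and at most 177 CPM in duodenum. Of the hepatocyte markers, Fgb was at 0 in 13 of the 15 duodenum libraries and Ahsg in 12, and of the enterocyte markers Alpi, Lct and Sis were each at 0 in 3 of the 15 liver libraries. Libraries standing apart from their group were duodenum control 3 and fructose 3 (pancreatic acinar genes, 146 and 72.1 CPM), duodenum control 5 (hepatocyte genes, 177 CPM), and liver dextrose 5 and control 2 (5 cell cycle genes, 155 and 143 CPM, against 3.42 to 7.98 CPM in the other 13 liver libraries). Acinar genes were also raised in liver control 5 (334 CPM), control 2 (226 CPM) and dextrose 4 (167 CPM), against 0.770 to 69.7 CPM in the other 11 liver libraries besides dextrose 5. Values without the 5 libraries that stood apart, and values with liver control 5 and dextrose 4 left out as well, are given beside the main calls they change; both alternatives were added once the data had been seen. In whole tissue, fewer cells of a type and less RNA per cell cannot be told apart.

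Levels are the deposited FPKM, read counts scaled by gene length and library total, so that genes of different length can be set side by side. The authors' lengths were 1052 bases for Khk, 2253 for Tkfc, 2301 for Glyctk and 1611 for Gpd1. In GENCODE M21 their exons cover 1797, 4617, 4229 and 2961 bases. Ranks and ratios between genes depend on the lengths used. Khk and Tkfc were highest in the duodenum of fructose-fed mice, with Khk at 2273 ± 178 FPKM, rank 35 of the 22800 genes above 0, and Tkfc at 1439 ± 228 FPKM, rank 61 (mean ± SD, n = 5 here and below). Gpd1 averaged 831 ± 52.9 FPKM in the same group, rank 125. Glyctk was the weakest of the 4 in every group, at 3.83 ± 0.672 FPKM and rank 8486 in the fructose duodenum.

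The groups of Khk came in the order duodenum fructose, duodenum dextrose (1478 ± 129 FPKM), duodenum control (1091 ± 105 FPKM), liver fructose (1071 ± 63.5 FPKM), liver control (596 ± 244 FPKM) and liver dextrose (527 ± 158 FPKM). Libraries of duodenum control and liver fructose overlapped, as did those of liver control and liver dextrose, and the other neighbours in this order did not. Tkfc had the same order, with 594 ± 43.4 FPKM in duodenum dextrose, 371 ± 55.0 in duodenum control, 279 ± 44.5 in liver fructose, 190.1 ± 62.8 in liver control and 183 ± 41.7 in liver dextrose. Each neighbouring pair from duodenum control down overlapped. These orders are by FPKM, scaled by library total. By edgeR, on counts scaled by trimmed means, Khk in the fructose duodenum was above the fructose liver by 0.82 on the log2 scale. It was above the control duodenum by 1.12. The order of duodenum control and liver fructose for Khk therefore depends on the scaling. For Gpd1 the duodenum on dextrose (472 ± 52.6 FPKM) and on control (436 ± 46.7 FPKM) overlapped, and so did the liver on fructose (168 ± 33.4 FPKM, the lowest), dextrose (184 ± 25.6 FPKM) and control (192 ± 40.0 FPKM). Glyctk alone had the liver on top, at 38.9 ± 3.09 FPKM on fructose, 37.5 ± 3.46 on dextrose and 44.0 ± 4.85 on control, all overlapping, above the 3 duodenum groups, which overlapped at 3.43 to 3.83 FPKM.

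**Figure D1:**
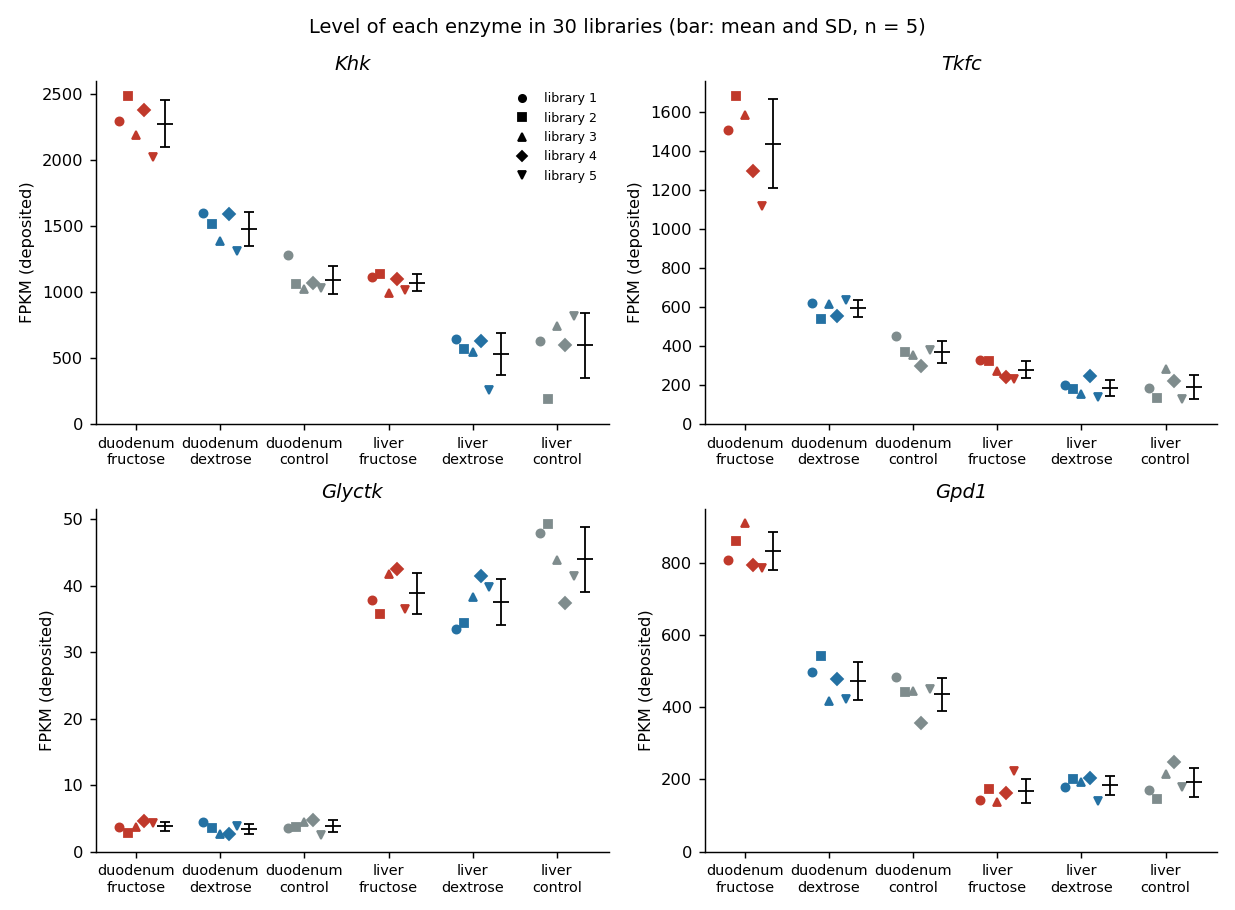
Deposited FPKM (y axis, linear from 0) of Khk, Tkfc, Glyctk and Gpd1 in 30 libraries, by tissue and diet; symbols are libraries 1 to 5 of a group, and the bar gives mean and SD. Khk, Tkfc and Gpd1 are highest in all 5 duodenum libraries on fructose, Glyctk is at most 4.83 FPKM in every duodenum library and at least 33.5 FPKM in every liver library, and 2 low Khk values stand out in liver, dextrose 5 and control 2.

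In duodenum the transcripts of the enzymes that phosphorylate fructose and glyceraldehyde, and of the one that makes glycerol 3-phosphate, were higher on fructose than on control. Against the control diet Tkfc was 4.04 times as high, Khk 2.18 times and Gpd1 1.99 times. The transcript for glycerate kinase did not pass the test. By edgeR's quasi-likelihood test with Benjamini-Hochberg adjustment, which is the test of every gene here unless another is named, 3 of the 4 genes passed, all higher, beside 6.71% of the 13884 genes tested (4.01% higher).

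Khk had 2297, 2482, 2191, 2378 and 2018 FPKM in the fructose duodenum, 1594, 1515, 1384, 1592 and 1306 FPKM on dextrose and 1276, 1059, 1024, 1069.9 and 1027 FPKM on control. The 3 diets did not overlap in any library, and control 1 lay above the other 4 controls. Fructose against control gave a log2 fold change of 1.12 ± 0.11 (standard error, adjusted p = 2.96e-06).

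Tkfc had 1510.0, 1683, 1587, 1297 and 1120.5 FPKM in the fructose duodenum, 619.7, 539, 619, 556 and 637 FPKM on dextrose and 452, 370.1, 353, 299 and 380.3 FPKM on control. Again the 3 diets were apart in all 15 libraries, and the lowest fructose library was above every dextrose library. The log2 fold change of fructose against control was 2.01 ± 0.12 (adjusted p = 3.20e-08), and its p was the second smallest of all genes tested.

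Gpd1 had 807, 859.6, 911, 795 and 785 FPKM in the fructose duodenum, 498, 543, 417, 478 and 423 FPKM on dextrose and 483, 443, 445, 357 and 449 FPKM on control. The fructose libraries lay above all others, and the dextrose and control libraries were mixed. Its log2 fold change on fructose was 1.00 ± 0.11 (adjusted p = 2.10e-05). Gpd1 is also abundant in fat cells, and the 7 adipocyte genes summed to between 124 and 239 CPM in the fructose libraries and between 145 and 227 CPM in the controls, so the groups overlapped. Adipoq, their defining hormone, was at 0 in 3 of the 15 duodenum libraries. The enterocyte genes likewise overlapped, between 22438 and 29016 CPM in fructose libraries and between 23580 and 29940 CPM in controls. Their part in the Gpd1 result was not tested.

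Glyctk had 3.69, 2.87, 3.70, 4.63 and 4.28 FPKM in the fructose duodenum, 4.40, 3.63, 2.70, 2.63 and 3.80 FPKM on dextrose and 3.59, 3.77, 4.43, 4.83 and 2.47 FPKM on control. All 3 diets overlapped. These values rest on 89 to 188 reads per library, which alone gives a counting error of up to 10.6%. The log2 fold change on fructose was 0.08 ± 0.20 with a 95% interval of -0.35 to 0.50 (adjusted p = 0.876), so changes of either sign lie within it. Its sign turned without fructose 4 (-0.03) or control 5 (-0.05). Without the 3 duodenum libraries that stood apart, Tkfc gave 1.97 ± 0.17 (adjusted p = 2.42e-05), Khk 1.09 ± 0.14 (adjusted p = 0.000745) and Gpd1 0.99 ± 0.15 (adjusted p = 0.00249).

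**Figure D2:**
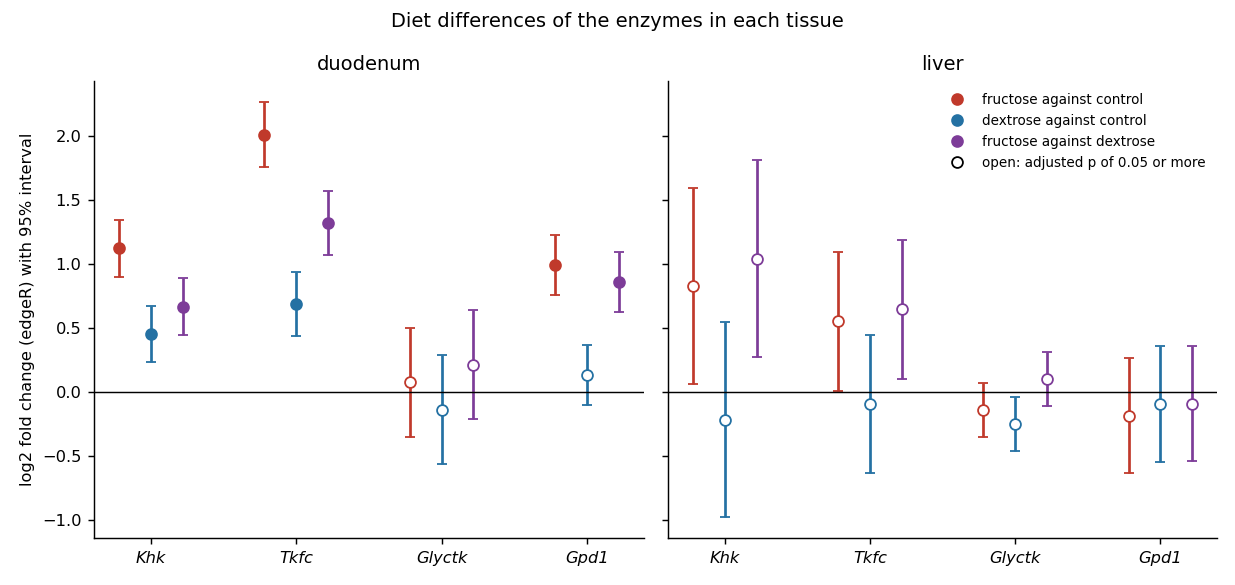
Log2 fold changes from edgeR (y axis) with 95% intervals for each enzyme and diet comparison, duodenum on the left and liver on the right; filled points passed an adjusted p of 0.05 and open points did not. In duodenum Tkfc has the highest value of each comparison, Glyctk stays near 0, and Gpd1 is filled only where fructose is compared; in liver every point is open and the intervals of Khk are the widest, reaching 1.81 for fructose against dextrose.

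On dextrose Khk and Tkfc were also higher than on control in duodenum. Tkfc was 1.62 times as high on dextrose as on control and Khk 1.37 times, 2 of the 4 genes, both higher, beside 2.25% of genes tested (1.15% higher). The log2 fold changes were 0.69 ± 0.12 for Tkfc (adjusted p = 0.00316) and 0.46 ± 0.10 for Khk (adjusted p = 0.0261). Gpd1 gave 0.13 ± 0.11 with an interval of -0.10 to 0.37 (adjusted p = 0.801), and Glyctk -0.14 ± 0.20 (adjusted p = 0.941). Neither call held without the 3 duodenum libraries that stood apart, where Tkfc gave 0.68 ± 0.16 (adjusted p = 0.0525) and Khk 0.40 ± 0.13 (adjusted p = 0.288). The Khk call was also lost without any 1 of dextrose 1, 2 or 4 or control 2, 3, 4 or 5, at adjusted p of 0.0631 to 0.0976, although every dextrose library was above every control library.

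Set directly against dextrose, fructose gave higher Tkfc, Gpd1 and Khk in duodenum. These were 3 of the 4 genes, all higher, beside 3.64% of genes tested (2.17% higher). Tkfc was 2.50 times as high on fructose as on dextrose (log2 1.32 ± 0.12, adjusted p = 5.45e-06), Gpd1 1.82 times (0.86 ± 0.11, adjusted p = 0.000146) and Khk 1.59 times (0.67 ± 0.10, adjusted p = 0.00105). Glyctk gave 0.21 ± 0.20 (adjusted p = 0.679, interval -0.21 to 0.64). The fructose libraries are shared with the comparison against control, so the sets of values are not independent.

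None of the 4 genes passed the test in liver for any pair of diets. Khk had 1116, 1137, 994, 1095 and 1015 FPKM in the fructose liver, 640.0, 567, 544, 631 and 255 FPKM on dextrose and 632, 188, 742, 599 and 819 FPKM on control. Every fructose library was above every dextrose and control library. Fructose against control gave a log2 fold change of 0.83 ± 0.36 (adjusted p = 0.388), and fructose against dextrose 1.05 ± 0.36 (adjusted p = 0.358).

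Both low Khk values, dextrose 5 and control 2, belong to the libraries with raised cell cycle genes, where the 5 genes Mki67, Top2a, Ccnb1, Cdk1 and Birc5 summed to 155 and 143 CPM. Other markers were also highest in dextrose 5 and control 2: macrophage genes summed to 486 and 346 CPM, against at most 246 CPM in the other 13 liver libraries, cholangiocyte genes to 119 and 81.5 CPM, against at most 55.1 CPM, and goblet genes to 177 and 85.0 CPM, against at most 46.0 CPM. Pancreatic acinar genes reached 1121 CPM in dextrose 5 and 226 CPM in control 2, but also 334 CPM in control 5, which had the highest Khk of the controls. Hepatocyte genes were at 78713 CPM in dextrose 5 and 89303 CPM in control 2, within the range of the other liver libraries. The part of these differences in the low Khk values was not tested. Without both libraries the spread of Khk shrank, and it passed the test for fructose against control (0.58 ± 0.12, adjusted p = 0.0221) and for fructose against dextrose (0.86 ± 0.12, adjusted p = 0.00335). Leaving out control 2 alone gave 0.58 ± 0.24 against control (adjusted p = 0.322), and leaving out dextrose 5 alone 0.85 ± 0.32 against dextrose (adjusted p = 0.348). With control 2, control 5, dextrose 4 and dextrose 5 all left out, Khk gave 0.66 ± 0.12 against control (adjusted p = 0.0259) and 0.86 ± 0.12 against dextrose (adjusted p = 0.00491).

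**Figure D3:**
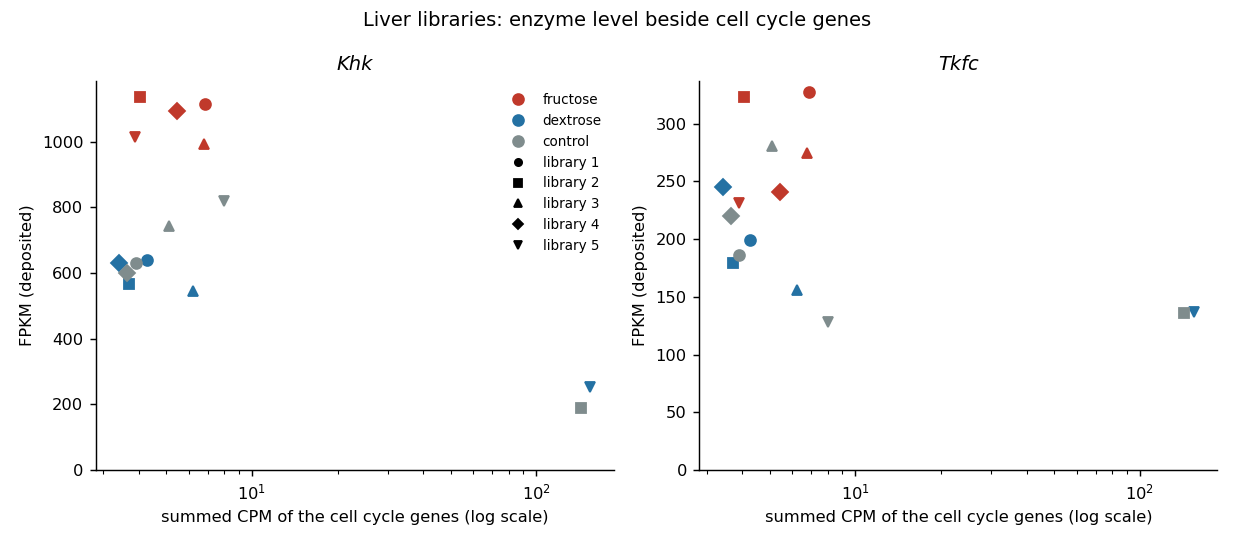
FPKM of Khk and Tkfc (y axes, from 0) against the summed CPM of 5 cell cycle genes (x axis, log scale) in the 15 liver libraries; colours are diets and symbols are libraries 1 to 5. Control 2 and dextrose 5 lie at 143 and 155 CPM with the lowest Khk values, 188 and 255 FPKM, while the other 13 libraries lie at 3.42 to 7.98 CPM, and the 5 fructose libraries are the 5 highest for Khk but not for Tkfc.

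Tkfc had 327, 323, 274, 241 and 231 FPKM in the fructose liver, 199.6, 179.7, 156, 245 and 137 FPKM on dextrose and 186, 136, 280.3, 219.8 and 129 FPKM on control. The diets overlapped, since dextrose 4 and control 3 reached the fructose range. Fructose against control gave 0.56 ± 0.26 (adjusted p = 0.421) and fructose against dextrose 0.65 ± 0.26 (adjusted p = 0.436), and without the libraries that stood apart 0.40 ± 0.20 (adjusted p = 0.310) and 0.53 ± 0.20 (adjusted p = 0.214). With control 5 and dextrose 4 left out as well, Tkfc gave 0.24 ± 0.16 (adjusted p = 0.534) and 0.63 ± 0.17 (adjusted p = 0.0971).

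Gpd1 had 144, 173, 138, 163 and 222 FPKM in the fructose liver, 181, 200.3, 193, 204 and 141 FPKM on dextrose and 171, 146, 216, 248 and 179 FPKM on control. These ranges overlapped, and its log2 fold change was -0.18 ± 0.21 for fructose against control (interval -0.63 to 0.27, adjusted p = 0.772). Glyctk had 35.7 to 42.6 FPKM in the fructose liver, 33.5 to 41.5 FPKM on dextrose and 37.3 to 49.2 FPKM on control, from 1212 to 2185 reads per library. Its fold change for fructose against control was -0.14 ± 0.10 (interval -0.35 to 0.07, adjusted p = 0.603), and for dextrose against control it was -0.25 ± 0.10 (adjusted p = 0.922).

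The liver backgrounds were small: 0.258% of the 13178 genes tested passed for fructose against control (0.19% higher and 0.0683% lower), 0.0759% for fructose against dextrose (0.0607% higher and 0.0152% lower) and 0% for dextrose against control. At an unadjusted p below 0.05 edgeR gave 2 of the 4 enzymes for fructose against control (Khk and Tkfc), the same 2 for fructose against dextrose, and 1 (Glyctk, lower) for dextrose against control. The shares of all genes tested at that unadjusted threshold were 11.7%, 9.45% and 4.2%, in the same order. DESeq2 called none of the 4 in these comparisons, and voom with sample weights called Khk (0.89, adjusted p = 0.00322) and Tkfc (0.56, adjusted p = 0.0226) for fructose against dextrose. Over all genes voom called many more for fructose against dextrose than edgeR did, as given below. For dextrose against control in liver edgeR called 0 genes, with 554 at an unadjusted p below 0.05, and DESeq2 called 1 gene. There Khk gave -0.22 ± 0.36, Tkfc -0.09 ± 0.26 and Gpd1 -0.09 ± 0.21 (adjusted p of 0.978 to 0.993).

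The fructose response of 2 enzymes differed between the tissues when that difference was itself tested, beside 1.08% of the 15268 genes tested (0.668% with the larger value in duodenum and 0.413% in liver). For Tkfc the log2 fold change in duodenum exceeded that in liver by 1.48 ± 0.30 (adjusted p = 0.0104), and for Gpd1 by 1.20 ± 0.25 (adjusted p = 0.0143). For Khk the difference was 0.32 ± 0.39, with an interval of -0.49 to 1.12 (adjusted p = 0.788), so that a tissue difference of either sign lies within it, and for Glyctk it was 0.24 ± 0.22 (adjusted p = 0.703). Without the 5 libraries that stood apart, Tkfc gave 1.62 ± 0.29 (adjusted p = 0.00367) and Gpd1 1.36 ± 0.23 (adjusted p = 0.00214). With libraries of the same diet and number treated as a block across the tissues, neither passed (adjusted p = 0.0518 for each).

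For dextrose none of the 4 enzymes passed in this test, beside 0.118% of genes (0.0131% higher and 0.105% lower). By edgeR Tkfc gave 0.80 ± 0.30 (adjusted p = 0.574) and was the 1 enzyme at an unadjusted p below 0.05, beside 6.56% of genes. DESeq2 and voom also called 0 of the 4, with 1 (Tkfc) and 2 (Khk and Tkfc) at an unadjusted p below 0.05. The gap between fructose and dextrose differed by 0.96 ± 0.25 between duodenum and liver for Gpd1 (adjusted p = 0.0838) and by 0.68 ± 0.30 for Tkfc (adjusted p = 0.437), beside 0.662% of genes passing (0.419% higher and 0.242% lower). Gpd1 and Tkfc were the 2 enzymes at an unadjusted p below 0.05 there, beside 9.88% of genes by edgeR. DESeq2 called 1 of the 4 (Gpd1) and voom both, and each called more of all genes than edgeR did, as given below. Gpd1 passed by edgeR without the libraries that stood apart (1.10 ± 0.21, adjusted p = 0.00642), with liver control 5 and dextrose 4 left out as well (1.08 ± 0.22, adjusted p = 0.0135), without liver dextrose 5 alone (1.08, adjusted p = 0.0203) and without liver fructose 5 alone (1.08, adjusted p = 0.0390).

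Compared between tissues on one diet, Tkfc and Gpd1 were higher in duodenum than in liver on all 3 diets and Glyctk was lower. On fructose all 4 enzymes passed, beside 76% of genes tested (38.8% higher and 37.2% lower in duodenum), with Tkfc 4.27 times as high in duodenum as in liver, Gpd1 4.12 times and Khk 1.77 times, and Glyctk at 0.0827 of its liver level. On dextrose all 4 passed as well, beside 76.2% of genes (38.3% higher and 38% lower), at 2.67 times for Tkfc, 2.29 times for Khk, 2.12 times for Gpd1 and 0.0766 for Glyctk. On control 3 of the 4 passed, beside 74.6% of genes (37.3% in each direction): Gpd1 at 1.80 times (adjusted p = 0.000128), Tkfc at 1.53 times (adjusted p = 0.0105) and Glyctk at 0.0701 (adjusted p = 5.78e-18).

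Khk on control did not pass, at log2 0.51 ± 0.28 (adjusted p = 0.102). On log2(FPKM + 1), which is scaled by the library total instead of trimmed means, limma gave 1.03 for it (adjusted p = 0.000752), and voom gave 0.43 (adjusted p = 0.0342). Upper-quartile scaling moved the median log2 difference of all genes between duodenum and liver to -0.11 to -0.12 on the 3 diets, and Khk on control was then 0.39 (adjusted p = 0.201). Tkfc on control was 0.62 ± 0.21 on the log2 scale and 0.46 ± 0.21 without the libraries that stood apart (adjusted p = 0.0569). With liver control 5 and dextrose 4 left out as well, Tkfc gave 0.28 ± 0.19 (adjusted p = 0.194) and Khk passed at 0.36 ± 0.14 (adjusted p = 0.0274).

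Ratios between the enzymes within a library do not depend on the scaling between libraries. In duodenum the ratio of Tkfc to Khk FPKM was 0.632 ± 0.0786 on fructose, 0.406 ± 0.0599 on dextrose and 0.339 ± 0.0350 on control. The lowest fructose library, at 0.545, lay above the highest dextrose library at 0.488 and the highest control at 0.370. On log2 counts Tkfc over Khk was 0.89 higher on fructose than on control and 0.64 higher on fructose than on dextrose (exact permutation test over 5 against 5 libraries, two-sided, p = 0.00794, the smallest this design allows; adjusted p = 0.0286 over 36 tests, that is 6 pairs of enzymes in 6 diet comparisons).

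For dextrose against control Tkfc over Khk was 0.25 and did not pass (exact permutation p = 0.0556, adjusted p = 0.0833). The ratio of Gpd1 to Khk in duodenum was 0.367 ± 0.0338 on fructose, 0.319 ± 0.0238 on dextrose and 0.401 ± 0.0441 on control, and fructose against control gave a log2 difference of -0.12 (exact permutation p = 0.230, adjusted p = 0.319). Gpd1 relative to Tkfc fell to 0.587 ± 0.0746 on fructose, against 0.802 ± 0.142 on dextrose and 1.181 ± 0.0698 on control, and fructose against control gave -1.02 on the log2 scale (exact permutation p = 0.00794, adjusted p = 0.0286). On dextrose against control Gpd1 over Tkfc was -0.57 (exact permutation p = 0.00794, adjusted p = 0.0286) and Gpd1 over Khk -0.32 (exact permutation p = 0.0159, adjusted p = 0.0381).

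In liver Gpd1 over Khk averaged 0.158 ± 0.0356 on fructose, 0.373 ± 0.105 on dextrose and 0.394 ± 0.225 on control, and it was lower on fructose than on dextrose by a log2 difference of -1.23 (exact permutation p = 0.00794, adjusted p = 0.0286) and than on control by -1.19 (exact permutation p = 0.0159, adjusted p = 0.0381). The highest fructose library, at 0.2192, overlapped the lowest control library at 0.2191. Gpd1 over Tkfc was also lower on fructose in liver, at 0.623 ± 0.207, against 1.02 ± 0.162 on dextrose and 1.06 ± 0.236 on control. The log2 differences were -0.76 against dextrose and -0.79 against control (exact permutation p = 0.0238, adjusted p = 0.0429 for each). The diets overlapped, with a fructose library at 0.961. Tkfc over Khk was 0.260 ± 0.0336 on fructose against 0.368 ± 0.102 on dextrose, a log2 difference of -0.47 (exact permutation p = 0.0159, adjusted p = 0.0381), and 0.384 ± 0.209 on control, a difference of -0.40 that did not pass (exact permutation p = 0.381, adjusted p = 0.483). Single libraries decided these Tkfc to Khk values: against control it was -0.68 and passed without control 5 (exact permutation p = 0.00794, adjusted p = 0.0238) and was -0.13 without control 2, and against dextrose it was -0.33 without dextrose 5 (exact permutation p = 0.0317, adjusted p = 0.0635) and also missed the threshold without any 1 of fructose 2, 3, 4 or 5.

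Of the 36 tests 20 passed, 9 of them in the fructose comparisons of duodenum, 3 in dextrose against control in duodenum and 8 in the fructose comparisons of liver. Without the libraries that stood apart 0 passed, with the smallest adjusted p at 0.0791, and the groups are then smaller. For fructose against control in duodenum the 5 ratios that had passed were then each at an exact permutation p of 0.0286. That is the smallest p that the libraries left in this comparison allow, so the loss of these calls does not show a smaller difference. Here Tkfc over Khk in duodenum was 0.90 for fructose against control, against 0.89 in the main test. The liver ratios to Khk shrank. For fructose against dextrose, Gpd1 over Khk went from -1.23 to -1.08, Tkfc over Khk from -0.47 to -0.33 and Glyctk over Khk from -1.04 to -0.77. For fructose against control they went from -1.19 to -0.91, from -0.40 to -0.13 and from -1.18 to -0.76.

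**Figure D4:**
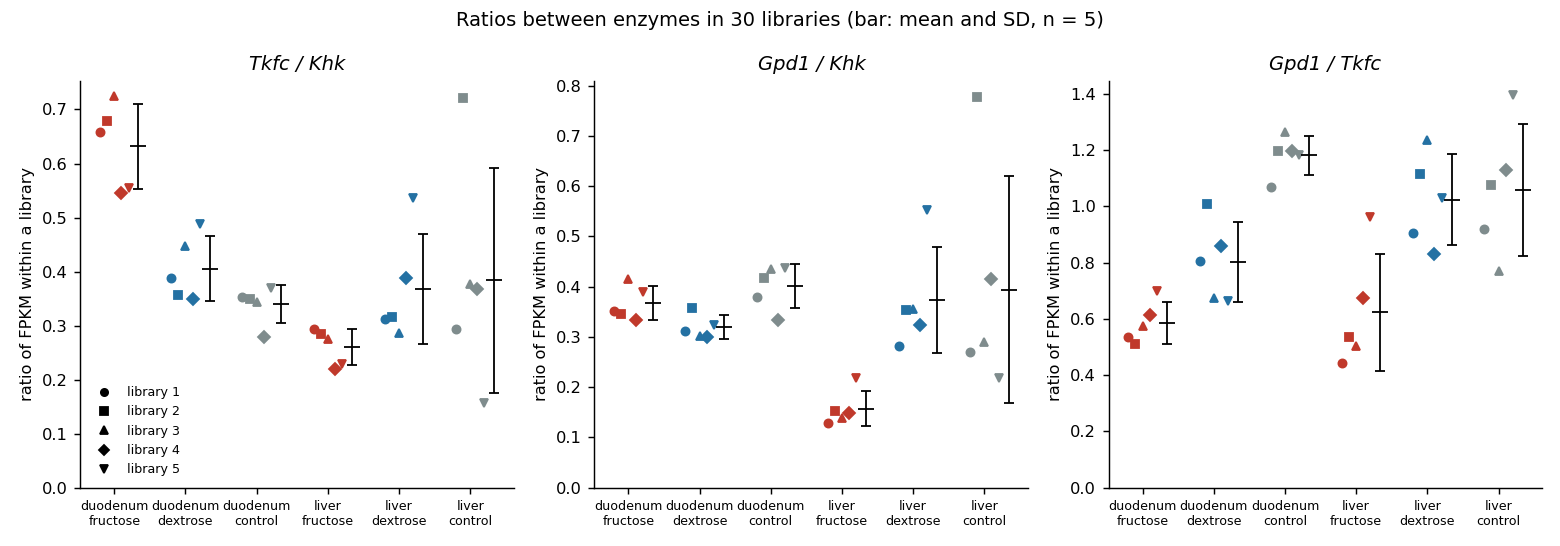
Ratios of deposited FPKM within a library (y axes, from 0) for Tkfc to Khk, Gpd1 to Khk and Gpd1 to Tkfc, by tissue and diet; symbols are libraries 1 to 5 and the bar gives mean and SD. Within duodenum, Tkfc to Khk is highest in the 5 fructose libraries, while liver control 2 reaches 0.722. Gpd1 to Khk has its lowest mean in liver on fructose, where library 5, at 0.2192, lies beside liver control 5 at 0.2191. The widest spread is in liver on control, where control 2 reaches 0.776 for Gpd1 to Khk.

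Genes next to the 4 enzymes were taken from a list of fructose entry, triose, glyceraldehyde, glycerol 3-phosphate, other sugar kinase and polyol, and regulator genes, of which 34 were found and 33 were tested in duodenum. On fructose against control in duodenum 10 of the 33 were higher and 0 lower, beside 4.01% of all genes higher and 2.7% lower, with a median log2 fold change of 0.11, where the median of all genes was -0.02. Of the 7 triose genes 6 were higher: Pklr, the pyruvate kinase of liver and gut, rose by 1.51 ± 0.10 (adjusted p = 7.05e-08), enolase Eno1 by 1.06 ± 0.09 (adjusted p = 8.24e-07) and Gapdh by 0.98 ± 0.10 (adjusted p = 7.62e-06). Of the 3 entry genes 1 rose, the fructose transporter Slc2a5, by 3.02 ± 0.19 (adjusted p = 4.39e-08), at 1907 ± 189.6 FPKM on fructose and 246 ± 51.8 FPKM on control.

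The glucose and fructose carrier Slc2a2 gave -0.05 ± 0.18 in duodenum (adjusted p = 0.914). Gpd2, the mitochondrial partner of Gpd1 in the glycerol phosphate shuttle, rose by 0.80 ± 0.10 (adjusted p = 5.72e-05), 1 of 6 glycerol 3-phosphate genes. Among the 8 glyceraldehyde and glycerate genes 2 rose, the aldehyde dehydrogenase Aldh2 and the phosphoglycerate mutase Pgam1, while 0 of 6 other kinase and polyol genes and 0 of 3 regulators passed. Mlxipl, which encodes the sugar-responsive factor ChREBP, gave 0.68 ± 0.20 (adjusted p = 0.0560).

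Dextrose against control in duodenum gave 3 higher and 2 lower, beside 1.15% of all genes higher and 1.09% lower. Pklr (0.65 ± 0.10, adjusted p = 0.00160) and Gpd2 (0.41 ± 0.10, adjusted p = 0.0343) rose, as did Eno1, while Aldh1a1, a retinal dehydrogenase also active on other aldehydes, fell by 2.19 ± 0.31 (adjusted p = 0.00117) and Sord, the sorbitol dehydrogenase that makes fructose from sorbitol, fell by 0.67 ± 0.12 (adjusted p = 0.00410). Fructose against dextrose gave 11 higher and 0 lower, beside 2.17% of all genes higher and 1.48% lower, led by Slc2a5 (2.93 ± 0.19, adjusted p = 1.62e-07), Pklr (0.86 ± 0.10, adjusted p = 5.97e-05), Aldh2 (1.06 ± 0.13, adjusted p = 7.81e-05) and Eno1 (0.71 ± 0.09, adjusted p = 0.000104). Without the 3 duodenum libraries that stood apart the counts were 9 higher and 0 lower for fructose against control, 1 and 2 for dextrose against control, and 9 and 0 for fructose against dextrose. Fewer of all genes also passed without them, as given below.

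In liver 0 of the 34 passed for any pair of diets. Slc2a5 was at 6.22 ± 2.42 FPKM in the fructose liver and 5.96 ± 2.96 FPKM in the control liver, and its fructose response was larger in duodenum than in liver by 2.99 ± 0.63 on the log2 scale (adjusted p = 0.0137). Pgk1, the phosphoglycerate kinase, also differed that way, by 0.63 ± 0.14 (adjusted p = 0.0165), whereas Gpam, which acylates glycerol 3-phosphate, differed the other way, by -1.93 ± 0.44 (adjusted p = 0.0238); it averaged 0.776 ± 0.205 FPKM in the fructose duodenum and 1.10 ± 0.300 FPKM in the control duodenum, against 94.8 ± 38.2 FPKM in the fructose liver and 34.6 ± 13.4 FPKM in the control liver. Without the 5 libraries that stood apart the Gpam difference was -1.70 ± 0.49 and did not pass by edgeR (adjusted p = 0.106). In this test 5 genes were then higher and 0 lower: Slc2a5, Pgk1, Gapdh, Rbks and Gckr. The matching count over all genes is not given here. Gckr was very low in duodenum, at 0.239 ± 0.157 FPKM on fructose and 0.0572 ± 0.0901 FPKM on control. Its liver levels on these diets were 189 ± 24.6 and 137 ± 38.8 FPKM. In liver Pklr gave 1.48 ± 0.56 (adjusted p = 0.326), Gpd2 0.29 ± 0.21, Mlxipl 0.54 ± 0.31 and Slc2a2 -0.07 ± 0.33 (adjusted p of 0.518 to 0.942 for these 3). Without both liver libraries that stood apart 1 gene was higher and 2 lower for fructose against control. By edgeR these were Pklr (1.20, adjusted p = 0.0298), the ribokinase gene Rbks (-0.57, adjusted p = 0.0449) and the glyoxylate and hydroxypyruvate reductase gene Grhpr (-0.44, adjusted p = 0.0355). For fructose against dextrose 3 were higher and 0 lower (Pklr, Eno1 and Agpat2). Calls over all genes also rose in both comparisons without these libraries, as given below.

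**Figure D5:**
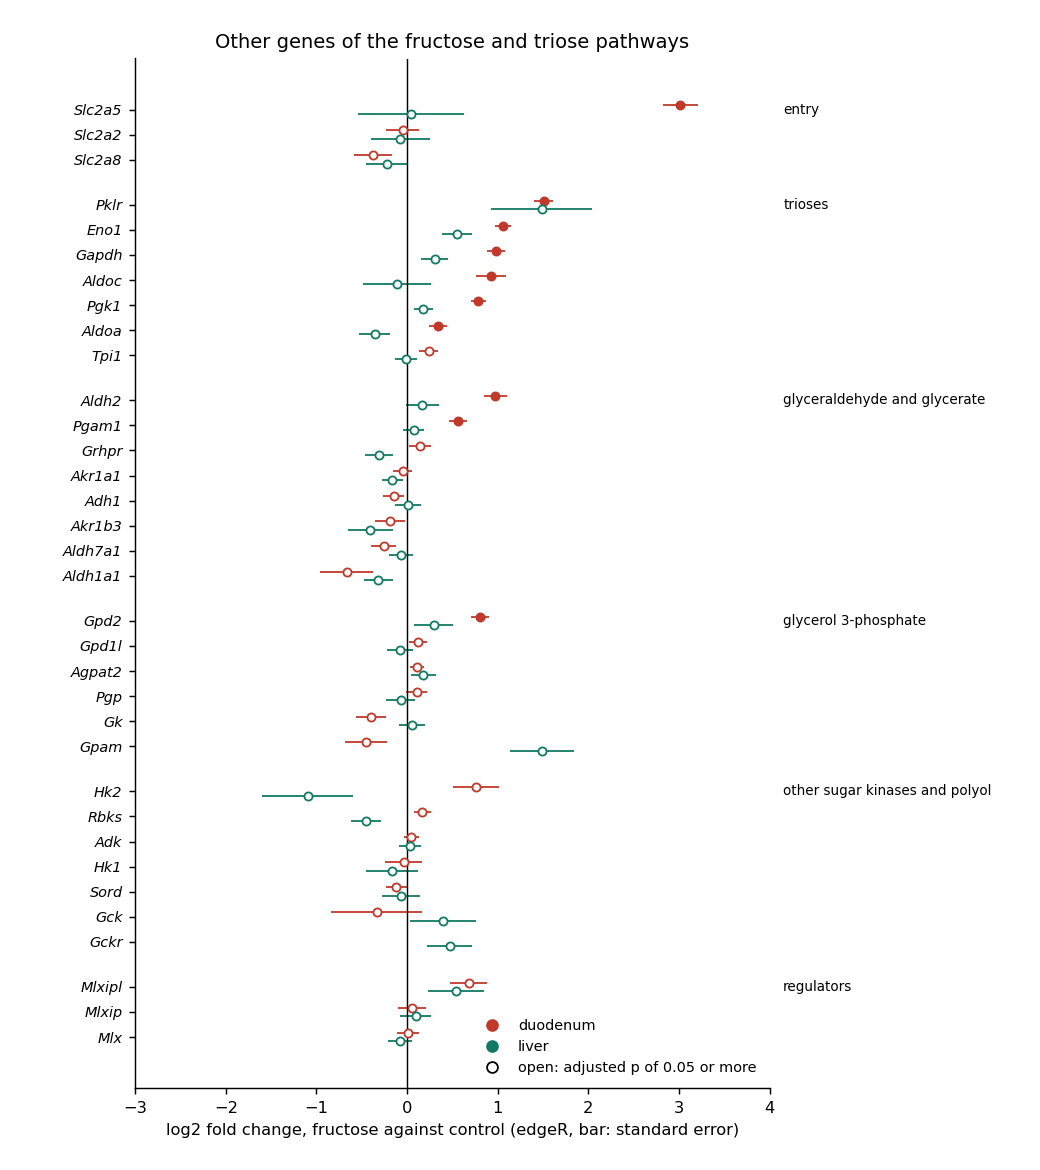
Log2 fold changes of fructose against control from edgeR (x axis, bar: standard error) for 34 genes of the fructose and triose pathways, grouped by role, with duodenum in red and liver in green; filled points passed an adjusted p of 0.05. The 10 filled points are all from duodenum, led by Slc2a5 at 3.02, and lie mostly among the triose genes, while all liver points are open.

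Genes whose pattern was closest to each enzyme over the 15 libraries of a tissue were found by Pearson's r of log2 CPM, given as a description, because libraries of one diet share their level. In duodenum the closest to Tkfc were Eno1 (r = 0.986), the glucose 6-phosphate isomerase gene Gpi1 (0.984) and Gcat (0.980), and the closest to Khk were Vps36 (0.971), the lactate dehydrogenase gene Ldha (0.967) and Gpi1 (0.966). For Gpd1 they included Slc2a5 (0.971) and Gpi1 (0.971). For Glyctk no gene exceeded 0.811 (Ngly1), followed by Xkr8 and Rbm7, and its r with the other 3 enzymes was 0.0887 to 0.213.

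Khk and Tkfc correlated at r = 0.962 over the 15 duodenum libraries, and at 0.423 once the mean of each diet was subtracted. For Khk and Gpd1 these were 0.929 and 0.663, and for Tkfc and Gpd1 0.932 and 0.472. In liver Khk and Tkfc had r = 0.816, and 0.603 in the 13 libraries left without the 2 that stood apart, while Khk and Gpd1 had 0.488 and -0.477, so the sign of that relation rests on those libraries. The closest genes to Khk in liver were Ebpl (0.972), Gstt1 and Cyp2d40, which had 0.819 to 0.846 without both libraries. Those closest to Tkfc were Aqp8 (0.959), the transketolase gene Tkt (0.944) and Srms (0.934), those closest to Gpd1 were Trap1 (0.973), the hepatic lipase gene Lipc (0.933) and Apoh (0.916), and those closest to Glyctk were Zfp235 (0.791), G0s2 (0.786) and Lyrm1 (0.777).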

How the data were processed

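Poly(A) RNA of 15 duodenum and 15 liver samples was sequenced. The submitters' processing notes name TopHat2 2.0.12, Bowtie2 2.2.3, HTSeq 0.6.1 and DESeq 1.18.0, and no genome build is given in the sources used here. The authors deposited raw counts per gene and FPKM. The deposited FPKM equalled count over gene length and library total within 0.001 (relative) for 100% of values above 0. Every value column was matched to a sample (0 unmatched).

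Raw counts went into edgeR 4.0.16 (R 4.3.3): filterByExpr, TMM scaling and the robust two-sided quasi-likelihood test, adjusted by Benjamini-Hochberg across each comparison's genes, with a threshold of 0.05. Within-tissue fits held 15 libraries and between-tissue fits all 30. Ratios used log2 counts with 0.5 added and an exact permutation test. Levels are FPKM, and fold changes come from the fits. Counting error covers sampling of reads only. The fitting step was tested on simulated data. Alternatives used DESeq2 1.42.0, limma 3.58.1 with and without voom, other scalings and filters, and leaving out libraries. Replicate numbers were not used to pair libraries in the main tests: in 0 of 15 pairs of groups did every same-numbered pair correlate above 0.1. Weak correlation between tissues cannot exclude that equal numbers name the same mouse.

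The members and lists were chosen with earlier results of these data known. Named were the 4 members; the up to 4 pathway genes of smallest p past the threshold in a comparison, with Slc2a5, Slc2a2, Pklr, Mlxipl and Gpd2; and, for each member and tissue, the 3 genes of highest r among those averaging 1 CPM or more, predicted genes and pseudogenes aside. Aldh2 and Pgam1 for fructose against control, Eno1 for dextrose against control, and the genes called in liver or between tissues only without the libraries that stood apart were named after their values were seen. Of the genes so chosen 1 is not reported here.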

Additional observations from a re-analysis of the deposited data

Results flagged for a closer look

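In duodenum control 1 the Khk level, 1276.25 FPKM, lay far from the other controls: its gap to the nearest covered 0.819 of the range of the 5 libraries, above Dixon's value of 0.710. In liver dextrose 5 Khk was at 254.5 FPKM with a gap of 0.751 of the range below the other dextrose libraries, and this library also had raised cell cycle genes, 155 CPM. Chance gives such a gap in about 1 in 20 groups, and 24 groups of values were examined.

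The fructose response differed between duodenum and liver by a test of the difference itself for Tkfc, by 1.48 on the log2 scale (2.01 in duodenum and 0.56 in liver, adjusted p = 0.0104), and for Gpd1, by 1.20 (1.00 in duodenum and -0.18 in liver, adjusted p = 0.0143). Neither passed by edgeR with the replicate block (adjusted p = 0.0518 for each).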

How the results depend on the processing

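In duodenum 3 of the 4 enzymes passed for fructose against control and against dextrose under every alternative run, and with any library left out (3 to 3). For dextrose against control the 2 calls became 0 without the libraries that stood apart and 1 with only the groups compared, and 1 to 2 with a library left out. In liver 0 passed with any library left out (0 to 0 in the 3 comparisons), and without the libraries that stood apart 1 passed for fructose against control and 1 for fructose against dextrose, where voom called 2; leaving out liver control 5 and dextrose 4 as well also gave 1 and 1. The 2 differences between tissues in the fructose response held with any library left out (2 to 2) and became 0 with the replicate block, where Tkfc gave 1.40 and Gpd1 1.17 (adjusted p = 0.0518 each, edgeR). For the dextrose response 0 passed (0 to 0), and for the gap between the sugars DESeq2 gave 1, voom 2, limma with 1 and with 0.1 added to FPKM 1 each, and 1 each without the libraries that stood apart, with those further liver libraries also left out, and with only the groups compared (0 to 1 with a library left out). Compared between tissues, all 4 enzymes passed with fructose or dextrose under every alternative run (4 to 4 with a library left out). On control 3 passed (3 to 3), 4 by voom, by limma on FPKM and with the replicate block, and 2 without the libraries that stood apart or with only the groups compared. Of the 36 ratio tests 20 passed, and 13 to 21 with a library left out. With the replicate block 0 passed, but 5 blocks allow no exact permutation p below 0.0625, so none could pass. Without the libraries that stood apart 0 passed, also 0 without the further liver libraries, and groups are then smaller. For fructose against control in duodenum they allow no exact permutation p below 0.0286.

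Over all genes, fructose against control in duodenum gave 932 calls, 1466 by voom and 329 without the libraries that stood apart (623 to 989 with a library left out). Dextrose against control gave 312, 520 by DESeq2, 492 by voom and 163 without those libraries (185 to 307), and fructose against dextrose 506, 826, 1513 and 274 (310 to 480). In liver fructose against control gave 34, 232 by DESeq2, 100 by voom, 4 with the replicate block, 225 without those libraries, 113 with liver control 5 and dextrose 4 also left out and 14 with only the groups compared (6 to 62). Dextrose against control gave 0, with 1 by DESeq2 (0 to 0). Fructose against dextrose gave 10, 16 with no filter on low counts, 143 by DESeq2, 1310 by voom, 0 with the replicate block, 250 without those libraries, 131 with liver control 5 and dextrose 4 also left out and 46 with only the groups compared (3 to 20). The tissue difference in the fructose response gave 165, 385 by DESeq2, 308 by voom and 370 by limma with 1 added to FPKM (102 to 222). That in the dextrose response gave 18, 90 by DESeq2, 55 by voom, 69 and 44 by limma with 1 and 0.1 added, 10 with the replicate block, 36 without those libraries and 7 with only the groups compared (13 to 32). That in the gap gave 101, 190 by DESeq2, 873 by voom, 182 by limma with 1 added, 60 with the replicate block, 162 without those libraries and 178 with only the groups compared (63 to 128). Between tissues the counts with a library left out were 11413 to 11560, 11422 to 11704 and 11225 to 11597. The cause was not tested.

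Signs turned only for values that had not passed, and the ranges with 1 library left out were as follows. Glyctk on fructose against control in duodenum ran from -0.047 without control 5 to 0.18 without fructose 2. For dextrose against control in liver Tkfc ran from -0.24 to 0.13 and was 0.028 by voom, and Gpd1 ran from -0.23 to 0.036 and was 0.017 by voom. In that comparison Glyctk over Khk ran from -0.41 to 0.28 and was 0.012 without the libraries that stood apart, Tkfc over Khk ran from -0.21 to 0.34 and was -0.18 with liver control 5 and dextrose 4 also left out, where Glyctk over Tkfc was 0.066 and Gpd1 over Tkfc 0.21, and Gpd1 over Khk from -0.14 to 0.32 and Gpd1 over Tkfc from -0.14 to 0.074. For fructose against control in liver Gpd1 over Glyctk ran from -0.15 to 0.14. Glyctk had 89 to 188 reads per duodenum library, a counting error of at most 10.6%, while its FPKM varied by 17.5% to 23.7% (CV) within the duodenum groups.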
